A study of Mus musculus with 2 samples.

Results

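The genes described here are 44 mouse genes of the cell division cycle and of DNA replication, read on 2 expression arrays of bone marrow-derived dendritic cells. They were taken as a list of gene names, with no cut on their values but with earlier results of these data known. Each was found through the transcript accession of its probes. All 44 had a probe, among 23782 named genes on the array. The list was read in 2 phase groups, 20 genes of the entry into and passage through S phase (G1/S and S phase, called the S-phase members) and 24 genes of G2 and mitosis (G2/M, called the mitotic members).

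The study concerns lactate and inflammation in dendritic cells, and the deposited arrays compare cells labelled as deficient in the transcription factor EGR1 with wild type (WT) cells. One culture was labelled Egr1-deficient and the other WT, both from C57BL/6J mice recorded as male. Both were femoral marrow grown for 6 days with GM-CSF at 10 ng/ml, which drives marrow precursors towards dendritic-like and macrophage-like cells, and no other treatment is recorded. The kind of Egr1 allele and the number of mice behind each culture are not given in the sources used here. There was 1 array per label, and readings are given under the EGR1-deficient label or under the WT label. With 1 array each, no test between the labels could be made, and every value below is a single reading of a culture.

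Cells that divide run through a fixed order of gene programmes. Before S phase, cyclin D and cyclin E with their kinases release the E2F transcription factors, which switch on the genes that load and fire replication origins and that make deoxynucleotides. Later, the transcription factors MYBL2 and FOXM1 act with the MuvB complex on the genes of spindle assembly, the mitotic checkpoint and cytokinesis. Marrow cultures in GM-CSF hold dividing precursors beside cells that have left the cycle, so in such cultures these transcripts come mainly from the dividing fraction.

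Both labels were checked before the comparison. Egr1 itself had a signal of 1212 under the EGR1-deficient label and 379.7 under the WT label, a difference of 1.61 log2 units in the direction opposite to the label, and where its probe lies relative to the targeted part is not stated in the sources used here. The X-inactivation RNA Xist had 4559 under the EGR1-deficient label and 3425 under the WT label, and of 4 Y-linked genes only Eif2s3y had a probe above background, at 27.1 and 25.6, which goes against the male label of both. All directions below therefore rest on the labels as given. Of 59305 non-control spots, 59.8% were well above background under the EGR1-deficient label and 55.2% under the WT label. As precision, the difference between arrays had a median SD of 0.07 log2 units over repeated spots of 1 probe, which is technical error only. Over 2 probes of 1 gene the median SD was 0.17, which also holds whatever sets the probes apart. Neither measures the spread between cultures.

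As a module, the cell cycle genes were close to the same level on both arrays, with 2 genes far below the rest under the EGR1-deficient label. Of the 44 members, 42 were well above background on both arrays, and their log2 differences, EGR1-deficient minus WT, had a median of −0.04. The same median over all 13722 genes above background on both arrays was −0.05. Of the 42, 22 lay below 0 and 20 above, where all genes had 7876 below and 5846 above. Within 1.5-fold were 38 of the members (90.5%), against 92.3% of all genes. Rrm1, the large catalytic subunit of ribonucleotide reductase, and Kif11, the kinesin that pushes the spindle poles apart, were the members at the low end. Each was 2-fold or more lower under the EGR1-deficient label.

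**Figure D1:**
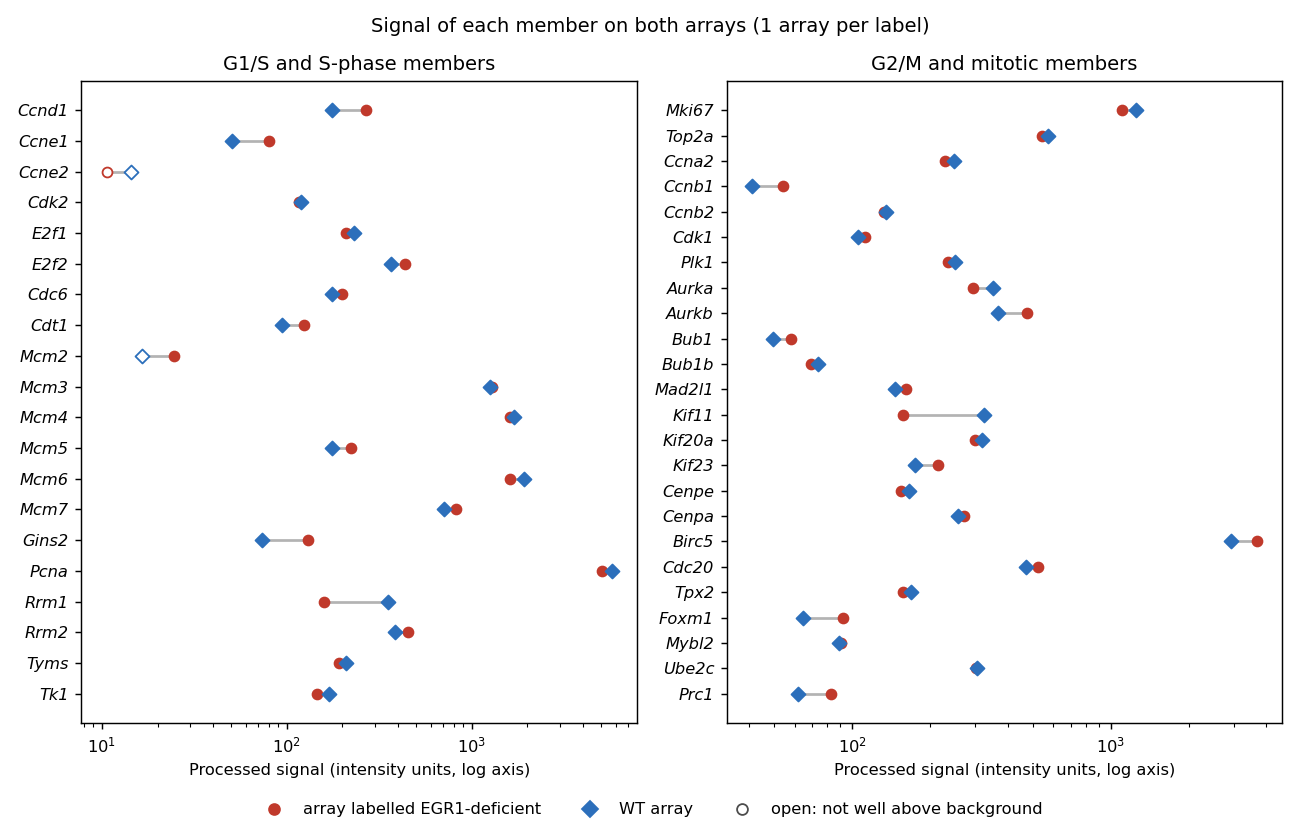
Processed signal of each of the 44 members under the EGR1-deficient label (red circles) and under the WT label (blue diamonds), 1 array each, on a log axis, with open symbols for readings not well above background. Most pairs nearly coincide, and the widest gaps are those of Rrm1 (158 and 351) and Kif11 (157 and 323).

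A count past a fixed fold has to be read against all genes. At 1.5-fold or more, 2 of 42 members (4.76%) were lower under the EGR1-deficient label, against 4.18% of all genes, and 2 of 42 (4.76%) were higher, against 3.51% of all genes. These shares are near the background. At 2-fold or more, 2 members were lower, against 1.01% of all genes, and 0 were higher, against 0.707% of all genes. The spread of the members' differences, an SD of 0.37, was also that of all genes, 0.37. These spreads are not like for like, because the members are seldom dim. Only 3 members lay in the dimmest quartile of signal, where the SD over genes was 0.50. In the third and brightest quartiles, with 17 and 7 members, it was 0.27 and 0.21. With Rrm1 and Kif11 left out after their values were seen, the SD of the other 40 was 0.27, with no matching trim of all genes.

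Bright probes scatter less than dim ones, so the members outside 1.5-fold were also set beside genes of like signal. Rrm1 and Kif11 lay in the third quartile of signal (mean signals of 195 to 621), where 17 members lay and 0.292% of genes were 2-fold or more lower. Gins2 lay in the second quartile, where 3.47% of genes were 1.5-fold or more higher, and Ccne1 in the dimmest quartile, where 9.33% were. Of the 17 members in the third quartile, 14 were within 0.35 log2 units of 0. All genes of that quartile had an SD of 0.27, with 1.98% of them 1.5-fold or more lower and 1.05% higher. Their share within 0.35 was not counted, so the 14 of 17 cannot be read as tight or loose.

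**Figure D2:**
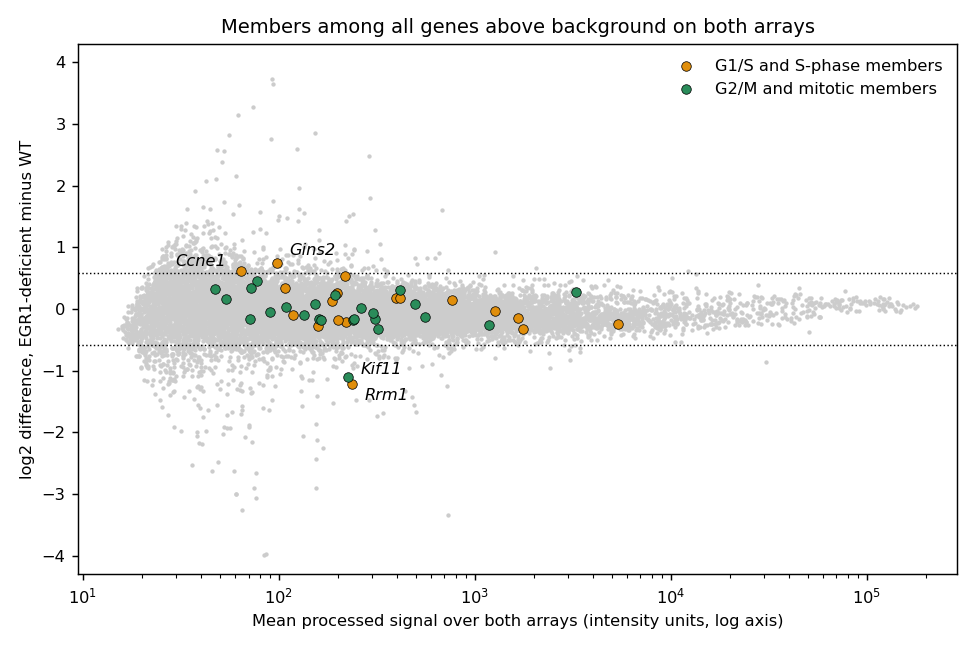
Log2 difference, EGR1-deficient minus WT, against mean processed signal over both arrays (log axis) for 13722 genes above background on both arrays (grey), with the S-phase members in orange and the mitotic members in green. Dotted lines mark 1.5-fold. Rrm1 (−1.21) and Kif11 (−1.11) lie apart below, and Gins2 (0.75) and Ccne1 (0.61) are the members above the upper line.

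The phase groups were read apart. The 24 mitotic members had a median difference of −0.06, and the 18 S-phase members above background on both arrays had one of 0.05, so mitotic minus S-phase was −0.10. This gap ran from −0.18 to −0.02 when members were left out one at a time, and it was 0.05, the other way, without the 4 members whose role spans phases (Ccnd1, Ccna2, Mki67 and Mybl2). Against the median of all genes, the mitotic members divided into 12 above and 12 below and the S-phase members into 10 above and 8 below. Mitotic members ranged from −1.11 to 0.45 and S-phase members from −1.21 to 0.75. In bulk RNA, fewer dividing cells and less of these transcripts per dividing cell cannot be told apart.

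The promoters of the members hold motif letters whose share differed between the phase groups, a property independent of the arrays. The RefSeq table of build GRCm38.p6 holds windows from 250 bases before to 50 after a transcript start. Of the members, 35 matched, with 38 windows, and Ccnd1, Ccne2, Mcm4, Gins2, Ccna2, Aurkb, Kif20a, Tpx2 and Foxm1 did not. Shown are the member of lowest and the member of highest difference with a window in each phase group, among members at or above the 25th percentile of signal. Cdk1, the mitotic member whose window holds the E2F, CHR and CCAAT motifs together, was added after the matches were seen. Capitals mark a match on either strand to the E2F motif TTTNNCGC, to the CHR element TTTGAA, a site of the MuvB complex, to the CCAAT box, the site of the factor NF-Y, or to the EGR1 motif GCGNGGGCG. The windows are Rrm1 at chr7:102441445-102441744, plus strand, Cdt1 at chr8:122567765-122568064, plus strand, Kif11 at chr19:37376132-37376431, plus strand, Prc1 at chr7:80294201-80294500, plus strand, and Cdk1 at chr10:69352863-69353162, minus strand.
Rrm1: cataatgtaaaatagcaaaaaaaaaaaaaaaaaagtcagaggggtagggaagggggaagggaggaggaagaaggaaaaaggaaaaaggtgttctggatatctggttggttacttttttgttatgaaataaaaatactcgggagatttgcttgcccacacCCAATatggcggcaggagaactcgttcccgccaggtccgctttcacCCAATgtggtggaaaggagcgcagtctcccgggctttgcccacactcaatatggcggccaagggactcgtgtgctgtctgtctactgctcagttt
Cdt1: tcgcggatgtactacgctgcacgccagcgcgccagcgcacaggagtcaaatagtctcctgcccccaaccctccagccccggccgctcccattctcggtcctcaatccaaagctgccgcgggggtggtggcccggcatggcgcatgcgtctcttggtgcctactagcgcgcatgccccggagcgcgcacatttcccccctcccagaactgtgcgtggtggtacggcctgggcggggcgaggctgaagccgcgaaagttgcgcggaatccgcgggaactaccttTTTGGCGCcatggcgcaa
Kif11: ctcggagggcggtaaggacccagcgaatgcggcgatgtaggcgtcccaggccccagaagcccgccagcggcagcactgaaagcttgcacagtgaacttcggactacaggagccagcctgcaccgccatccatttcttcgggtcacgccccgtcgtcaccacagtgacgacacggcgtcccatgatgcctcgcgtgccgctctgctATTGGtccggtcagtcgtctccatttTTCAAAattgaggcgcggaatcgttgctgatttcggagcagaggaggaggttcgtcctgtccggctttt
Prc1: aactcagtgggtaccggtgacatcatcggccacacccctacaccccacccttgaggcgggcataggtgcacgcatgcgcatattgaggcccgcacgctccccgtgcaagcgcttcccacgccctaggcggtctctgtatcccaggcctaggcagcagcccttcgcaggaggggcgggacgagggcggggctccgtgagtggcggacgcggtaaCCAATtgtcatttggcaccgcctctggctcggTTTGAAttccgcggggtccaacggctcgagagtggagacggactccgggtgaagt
Cdk1: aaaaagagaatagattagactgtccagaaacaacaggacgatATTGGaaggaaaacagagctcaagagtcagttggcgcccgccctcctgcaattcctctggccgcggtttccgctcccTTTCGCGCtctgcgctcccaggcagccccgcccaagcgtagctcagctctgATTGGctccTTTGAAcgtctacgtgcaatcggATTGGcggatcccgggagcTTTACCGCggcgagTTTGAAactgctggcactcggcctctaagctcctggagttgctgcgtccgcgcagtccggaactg

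In these windows Kif11 and Prc1, whose differences were −1.11 and 0.35, share the same pair of motifs. In Kif11 a CCAAT box lies at −45 to −41 and a CHR at −19 to −14 from the transcript start, both on the reverse strand. In Prc1 a CCAAT box lies at −37 to −33 and a CHR at −5 to 1. The Rrm1 window holds 2 CCAAT boxes, at −91 to −87 and −45 to −41, and no E2F or CHR letters. The Cdt1 window holds an E2F match at 33 to 40.

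Over all members, E2F letters were found in 9 of 18 S-phase windows (50%) and in 1 of 20 mitotic windows (5%), against 5.17% of 32851 promoter windows of all genes. CHR letters were found in 2 of 18 S-phase windows (11.1%) and in 14 of 20 mitotic windows (70%), against 17.9% of all windows. Each of these 14 mitotic windows also held a CCAAT box, a pair found in 6.95% of all windows. CCAAT, with or without a CHR, was found in 66.7% of S-phase and 85% of mitotic windows, against 37.4% of all. The EGR1 letters were found in 3 S-phase windows (16.7%) and 4 mitotic windows (20%), against 5.55% of all. A match of letters is not a bound site. Prc1, E2f2 and Mcm7 each have 2 windows in these counts, and those of Prc1 overlap.

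**Figure D3:**
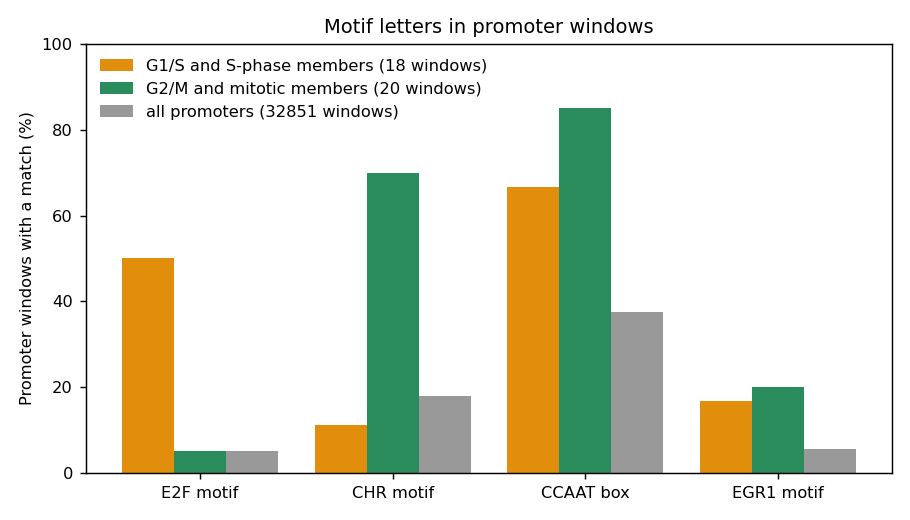
Share of promoter windows, in percent, with a match to each motif among S-phase members (orange, 18 windows), mitotic members (green, 20 windows) and all promoters (grey, 32851 windows). The E2F bar is high for S-phase members (50%) and the CHR bar for mitotic members (70%).

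The differences on the arrays were then read by motif, as a description. The 7 members with EGR1 letters were Birc5, Ccnb1, Ccne1, E2f1, Mad2l1, Mki67 and Rrm2, and their differences ran from −0.26 to 0.61 with a median of 0.18. The 27 measured members with a window but no EGR1 letters had a median of −0.07 and ran from −1.21 to 0.35. The EGR1 group's median depends on the probe taken. Birc5, Ccnb1 and Mad2l1, all above 0, have other probes below 0 (−0.12, −0.12 and −0.23, and −0.11). Its remaining members have 1 probe each, and Ccnb1 and Ccne1 lie in the dimmest quartile of signal. Members with E2F letters had a median of 0.08 (n = 10) and those without −0.08 (n = 24). Members with CHR letters had a median of −0.08 (n = 14) and those without 0.02 (n = 20). Members with a CCAAT box had a median of −0.07 (n = 25) and those without 0.07 (n = 9).

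Of the genes that open S phase, the cyclin genes Ccne1 and Ccnd1 were higher under the EGR1-deficient label. Ccne1, encoding cyclin E1, the activating partner of CDK2, had 80.5 under the EGR1-deficient label and 50.4 under the WT label, a difference of 0.61. Ccnd1, encoding cyclin D1, which growth factors induce, had 267 under the EGR1-deficient label and 176 under the WT label, a difference of 0.53. Both rest on 1 probe. The kinase Cdk2 had 116 under the EGR1-deficient label and 119 under the WT label (−0.10), and the second cyclin E gene, Ccne2, failed the background call in both cultures (10.6 under the EGR1-deficient label and 14.3 under the WT label). Of the activating E2F factors, E2f1 differed by −0.21 and E2f2 by 0.18, with another E2f2 probe at −0.03. Over the 5 measured genes of this role the median was 0.18.

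Licensing and helicase genes were spread on both sides of 0. CDT1 and CDC6 load the MCM ring onto origins. Cdt1 had 124 under the EGR1-deficient label and 93.9 under the WT label (0.34), and Cdc6 had 200 under the EGR1-deficient label and 175 under the WT label (0.12). The MCM ring has 6 different subunits, and Mcm3 (−0.03), Mcm4 (−0.14), Mcm5 (0.27), Mcm6 (−0.32) and Mcm7 (0.14) did not share a direction. Mcm6 had 1607 under the EGR1-deficient label and 1917 under the WT label, and both of its probes were below 0 (−0.28 and −0.32). The 3 Mcm3 probes were also all below 0, and both Mcm7 probes above. Mcm2 had 24.6 under the EGR1-deficient label and 16.4 under the WT label and passed the background call in the first of these alone. The ratio of these readings on the percentile scale was 1.43, but the WT reading failed that call, so no fold is claimed. The raw spot medians of Mcm2 were 75 under the EGR1-deficient label and 68 under the WT label, over local backgrounds of 45 and 40.

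Gins2 shows how much a member can turn on its probe. It encodes a subunit of GINS, which joins the MCM ring in the active helicase. Its probe of highest mean signal had 129.5 under the EGR1-deficient label and 73.3 under the WT label, a difference of 0.75, the highest of all members. Its other probe, of nearly the same brightness, had 90.2 under the EGR1-deficient label and 97.1 under the WT label, a difference of −0.17. With both probes averaged the difference was 0.29.

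The nucleotide supply genes hold the lowest member of all. Rrm1 had a signal of 158 under the EGR1-deficient label and 351 under the WT label, a difference of −1.21 or 2.32-fold, and it rests on 1 probe with 1 spot. Only 0.656% of all genes had a lower difference. The raw spot medians were 193.5 under the EGR1-deficient label and 379.5 under the WT label, over local backgrounds of 43 and 41, so the gap is present before any correction. Rrm2, the small subunit that pairs with RRM1 in the same enzyme, went the other way, with 455 under the EGR1-deficient label and 383 under the WT label (0.18).

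Other genes of fork and nucleotide supply were close on the arrays or divided between probes. The sliding clamp gene Pcna had 5099 under the EGR1-deficient label and 5730 under the WT label (−0.23). Tyms, encoding the thymidylate synthase that makes dTMP from dUMP, had differences of −0.18 and 0.55 in its probes, and the salvage kinase gene Tk1 had −0.27 and 0.29. In both genes the brighter probe was the one below 0.

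G2 and mitotic cyclins, kinases and their transcription factors showed no common direction. Cyclin genes Ccna2 (−0.18, another probe −0.11) and Ccnb2 (−0.10) were slightly below 0, and Ccnb1, with 53.9 under the EGR1-deficient label and 41.1 under the WT label, was at 0.33 while its 2 other probes were at −0.12 and −0.23. Cdk1, the kinase these cyclins activate, had 113 under the EGR1-deficient label and 105 under the WT label (0.03). The mitotic kinase Plk1 was at −0.15. The Aurora kinases diverged. Aurka, which acts at spindle poles, had 295 under the EGR1-deficient label and 352 under the WT label (−0.32), whereas Aurkb, the kinase of the chromosomal passenger complex, had 475.5 under the EGR1-deficient label and 365 under the WT label (0.31, another probe 0.68). Of the transcription factors, Foxm1 had 92.5 under the EGR1-deficient label and 64.7 under the WT label (0.45), the highest mitotic member, and Mybl2 was at −0.04.

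The kinesin Kif11 stood apart from the other spindle genes. It had 157 under the EGR1-deficient label and 323 under the WT label, a difference of −1.11 or 2.16-fold, in 1 probe with 1 spot. Its raw spot medians were 219 under the EGR1-deficient label and 402.5 under the WT label, over backgrounds of 32 and 33. The central spindle kinesins Kif20a (−0.16) and Kif23 (0.23, another probe 0.05), the midzone bundler Prc1 (0.35, another probe 0.14) and the Aurora A activator Tpx2 (−0.18) were all within 1.5-fold. Kif20a is also the member on chromosome 18, where 13 genes of the RefSeq table lie between it and Egr1, and it had 299 under the EGR1-deficient label and 319 under the WT label.

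The spindle checkpoint genes were the tightest role group. Bub1 (0.17), Bub1b (−0.16) and Mad2l1 (0.07, another probe −0.11), which hold back anaphase, and Cdc20 (0.08) and Ube2c (−0.07), which serve the ubiquitin ligase that starts it, all lay between −0.16 and 0.17. Genes of chromosome structure spread more widely, from −0.26 to 0.28. Mki67, whose product coats mitotic chromosomes and is the usual marker of dividing cells, had 1101 under the EGR1-deficient label and 1255 under the WT label (−0.26). Top2a, the topoisomerase that untangles sister chromatids, had 545 under the EGR1-deficient label and 572 under the WT label (−0.14, another probe 0.29). The centromeric histone gene Cenpa was at 0.01 and the kinetochore kinesin gene Cenpe at −0.16. Birc5, encoding survivin, a subunit of the passenger complex with Aurora B, had 3683 under the EGR1-deficient label and 2904 under the WT label (0.28), and its other, dimmer probe was at −0.12.

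Probes of 1 gene often disagreed at this scale. Of 65 member probes, 60 were well above background on both arrays. In 8 of the 16 members with at least 2 such probes, the probes differed in sign, and the median SD between probes of a member was 0.15. Among the 60 probes, 2 were 1.5-fold or more lower under the EGR1-deficient label (Rrm1 and Kif11) and 3 higher (Gins2, Ccne1 and the dimmer Aurkb probe). Of all genes, by the probe of highest mean signal, 4.18% were lower and 3.51% higher, and shares over all probes were not counted. Over the 3571 genes with exactly 2 such probes, the SD between them had a median of 0.17 and a 95th percentile of 0.60. Of the 42 measured members, 30 differed by under 0.3. The share of all genes under 0.3, and how often their probes differ in sign, were not counted.

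**Figure D4:**
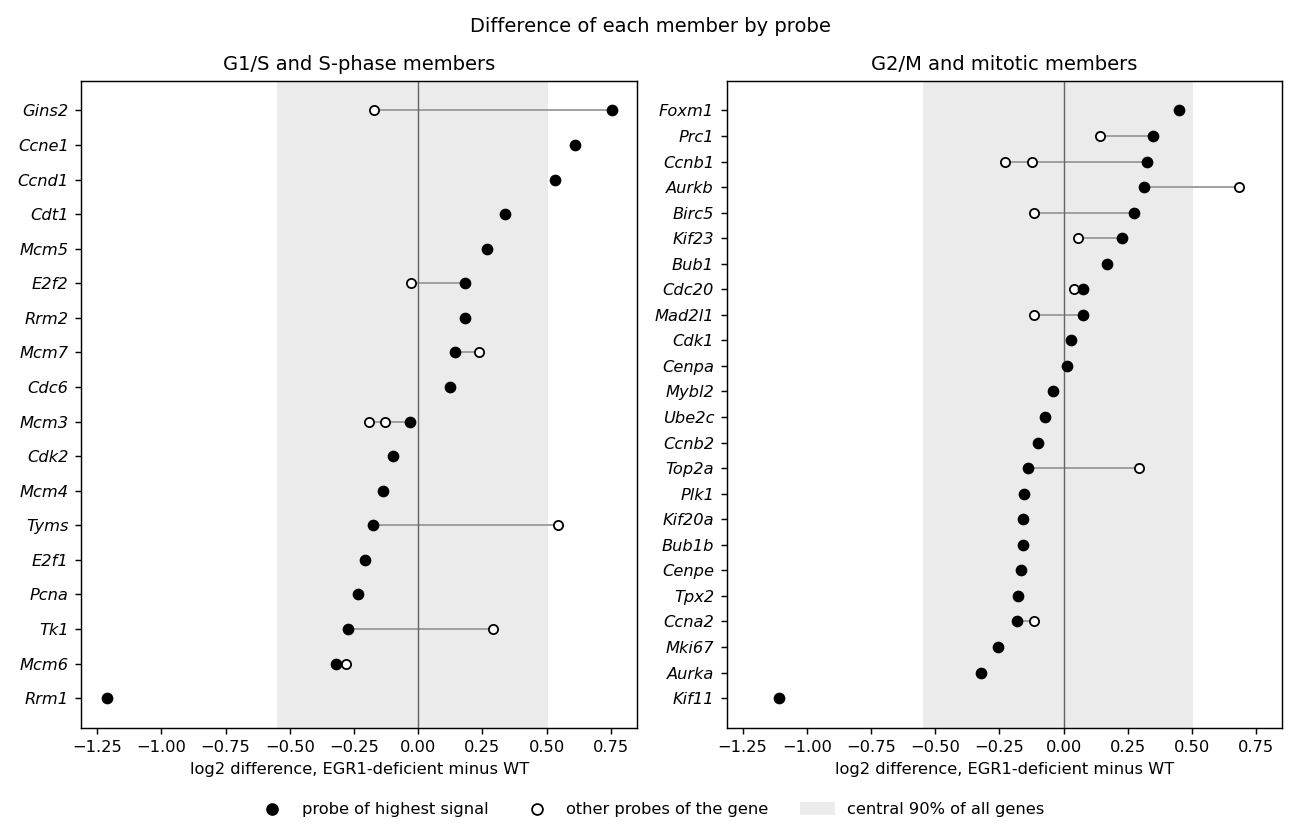
Log2 difference, EGR1-deficient minus WT, of each member above background on both arrays, ordered by value within each phase group, with the probe of highest mean signal filled and other probes open. The grey band holds the central 90% of all genes (−0.54 to 0.50). By the filled probe, Rrm1 and Kif11 lie below the band, and Gins2, Ccne1 and Ccnd1 lie above it. Lines cross 0 where probes of 1 gene disagree in sign, as in Gins2, Tyms and Tk1.

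Further genes of the same processes, listed apart from the members, gave medians near that of all genes. Of 44 other replication genes, 39 were above background on both arrays, with a median of −0.02. Of these, 4 (10.3%) were 1.5-fold or more lower, against 4.18% of all genes, and 1 (2.56%) was higher, against 3.51%. At 2-fold or more, 2 of the 39 (5.13%) were lower, against 1.01% of all genes. Mcm10, which helps activate the helicase, was at −0.69. Also at the low end were Rfc1 (−0.31) and Chaf1b (−0.27), and at the high end stood Rfc4, which like Rfc1 encodes a clamp loader subunit (0.51), the ligase gene Lig1 (0.26, another probe −0.53), Pold3 (0.20, another probe −0.02) and the dUTPase gene Dut (0.16).

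Of 55 other mitotic genes, 48 were above background on both arrays, with a median of 0.03. Of these, 2 (4.17%) were 1.5-fold or more lower, against 4.18% of all genes, and 3 (6.25%) were higher, against 3.51%. The subunits of the NDC80 complex, which ties kinetochores to microtubules, did not move together. Ndc80 had 64.7 under the EGR1-deficient label and 107 under the WT label (−0.79), and Nuf2, its direct partner, was at −0.42. The complex's other subunits, Spc24 and Spc25, named here after their values were seen, were both at 0.04, with another Spc25 probe at 0.34. Ckap2 (−0.46) and Cks2 (−0.37) were the other low genes. Cdca3 had 302 under the EGR1-deficient label and 155 under the WT label (0.90), Espl1, encoding the protease separase that opens cohesin rings at anaphase, had 155 under the EGR1-deficient label and 80.5 under the WT label (0.88), and Cenpf (0.55, another probe 0.03) and the condensin gene Ncapd2 (0.42) followed.

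Of 37 genes of cell cycle entry and arrest, 35 were above background on both arrays, with a median of −0.05. Of these, 2 (5.71%) were 1.5-fold or more lower, against 4.18% of all genes, and 0 were higher, against 3.51%. E2f3, the remaining activating E2F gene, had 55.4 under the EGR1-deficient label and 124 under the WT label (−1.23, 1 probe). Lin54, the DNA-binding subunit of the MuvB complex that recognises CHR elements, was at −0.75 and, in its other probe, −0.40. The CDK inhibitor gene Cdkn1a was at −0.48 (another probe 0.09) and the pocket protein gene Rbl1 at −0.43 (another probe 0.13). At the high end stood E2f7, a repressive E2F (0.34), Myc (0.32, another probe 0.03), Cdk6 (0.29, another probe −0.10) and the inhibitor gene Cdkn1b (0.18).

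Markers of the cells the cultures could hold were read beside the members. The 11 myeloid progenitor markers were all read on both arrays and had a median of −0.13, with 7 below 0 and 4 above. They ranged from −0.43 (Gata2) to 0.25 (Cebpe), with Kit at 0.01 and Mpo at −0.13. Of 11 macrophage markers, all above background, 10 were below 0, with a median of −0.34 and a range of −0.64 to 0.18. Among all 13722 genes, 7876 were below 0 and the median was −0.05. Of 12 dendritic cell markers, 10 were above background, with a median of −0.03, and Clec9a and Xcr1, markers of cross-presenting dendritic cells, were above background on neither array. The 6 of 9 B cell markers that could be read had a median of −0.65 and a range of −1.15 to 0.47, the 4 below 0 being dim and the brighter Pax5 (0.47) and Ms4a1 (0.45) above 0. The medians were 0.05 over 10 granulocyte markers, 0.28 over the 6 of 10 T and NK cell markers (range −1.06 to 0.63) and −0.19 over the 4 of 8 erythroid markers that could be read. The part of cell composition in the values of single members was not tested.

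Rrm1 and Kif11 were at least 1.5-fold lower under the EGR1-deficient label in each of the 8 other ways of scaling, filtering or choosing probes, from −1.33 to −1.01 for Rrm1 and from −1.22 to −0.88 for Kif11. Rrm1 and Kif11 each have 1 probe with 1 spot. The settings that filter or average probes therefore could not change their values, and another scale shifts them by 1 constant. On the higher side, Gins2 and Ccne1 each fell below 1.5-fold under some settings. Gins2 was under 1.5-fold after normexp background correction (0.49) and with its probes averaged (0.29), and Ccne1 ranged from 0.27 after normexp to 0.73 in the authors' series table. Setting the array median in place of the 75th percentile moved the median of all genes to −0.17, and the mitotic and S-phase medians to −0.17 and −0.07 with it.

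**Figure D5:**
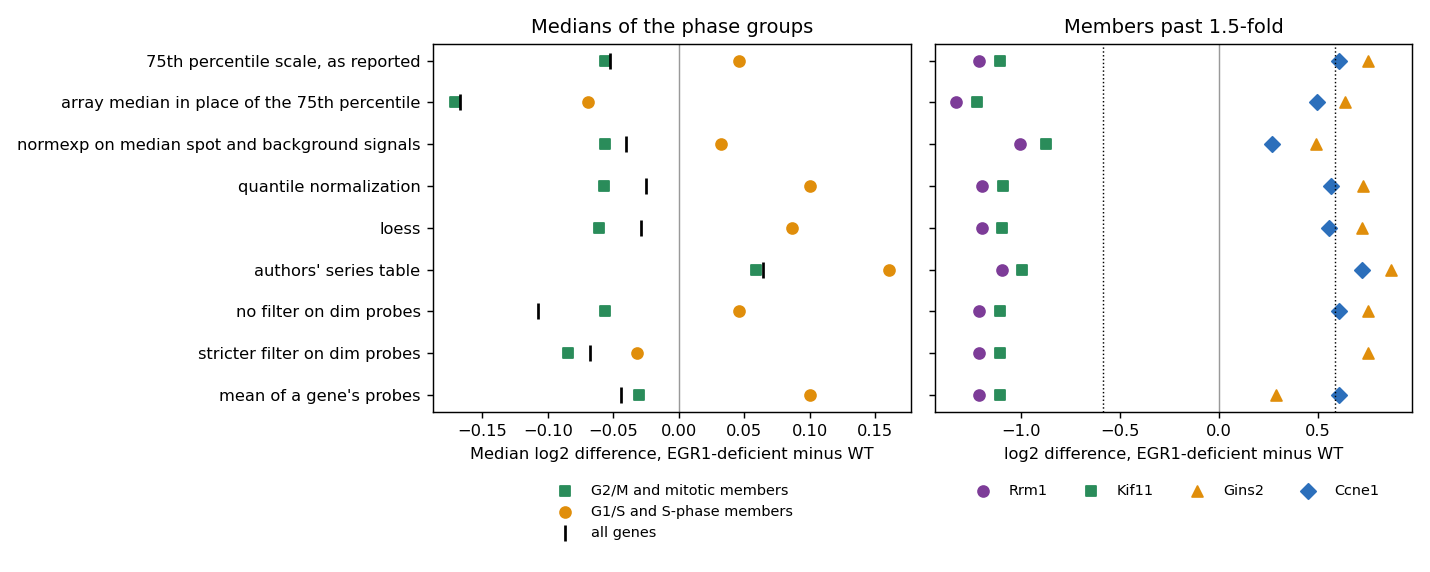
Left, median log2 difference, EGR1-deficient minus WT, of the mitotic members (green squares), the S-phase members (orange circles) and all genes (black ticks) under each setting. Right, the difference of Rrm1, Kif11, Gins2 and Ccne1 under the same settings, with dotted lines at 1.5-fold. Rrm1 and Kif11 stay below the lower line throughout, while Gins2 and Ccne1 cross the upper one.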

How the data were processed

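RNA of 2 cultures was measured on 2 one-colour Agilent arrays of 1 slide, read in 1 scan, per the file headers. The deposited values are spot intensities, which the authors made with Agilent Feature Extraction 12.1.0.3 per the file headers (11.5.1.1 per the submitters' processing notes), background subtraction and detrending included. The deposited series table equals these intensities times 1 constant per array (6.18 with the EGR1-deficient label, 5.97 with the WT label), is not centred, has column medians of 1205 and 1114 and served as an alternative. The other deposited columns used, well-above-background and outlier calls, come from the authors' scanner program, per the file headers.

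Here log2 intensity minus the array's 75th percentile (191.6 under the EGR1-deficient label, 183.0 on WT) was taken, 144 outlier spots were left out, repeated spots of a probe were averaged, and probes were named by accession in the RefSeq table of GRCm38.p6 (34560 probes, 23782 genes). A gene's value is its probe of highest mean signal. A fold for a gene above background on 1 array is a bound against the higher of the dim reading and the lowest well-above-background signal there (16.3 on WT). Where the dim reading is the higher, as in Mcm2, the value is a plain ratio of readings and not a bound. With 1 array per label no p-value was computed, and the number of arrays limits precision. Members and gene lists were chosen with earlier results of these data known. All 44 members are named, and of each further list the 4 lowest and 4 highest genes at or above the 25th percentile of signal (66.0), with their other probes. One gene that this rule names is not reported here. No promoter was printed from mouse chromosome 18. The planned promoter rule named Gins2 and Foxm1, which had no window, so the next member with one was printed. The counting step was tested on simulated data. Alternatives used limma 3.58.1 (normexp with offset 50, on median spot signals because the files hold no mean signal, and quantile) and statsmodels 0.14.6 (loess). Python 3.11.15 and R 4.3.3 were used.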

Additional observations from a re-analysis of the deposited data

How the results depend on the processing

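No paired analysis was possible because each label has 1 array. The S-phase median, 0.05 as reported, was −0.069 with the array median as scale, 0.16 in the authors' series table and −0.032 with the stricter filter on dim probes or without the members whose role spans phases, and leaving out 1 member at a time moved it between −0.032 and 0.12. The mitotic median, −0.06 as reported, was −0.17 with the array median, 0.059 in the series table and 0.014 without the members that span phases. Mitotic minus S-phase, −0.10 as reported, was 0.046 without those members and between −0.18 and −0.024 with 1 member left out. Members 1.5-fold or more higher, 2 as reported, numbered 1 with the array median, quantile normalization, loess, the stricter filter or averaged probes, 0 after normexp and 3 in the series table, where Ccnd1 joined them at 0.65. The share of all genes that far higher, 3.51% as reported, changed with the setting too. In the same order it was 2.10%, 2.78%, 2.97%, 1.57% and 3.22%, then 0.496% after normexp and 5.05% in the series table. With the array median and in the series table, the medians were −0.13 and 0.11 for other replication genes, −0.088 and 0.15 for other mitotic genes, and −0.16 and 0.070 for entry and arrest genes, where all genes had −0.17 and 0.06. Another scale shifts every gene of the table by 1 constant. Of 333 single-gene values under the alternatives, 124 moved by at least the 0.07 SD of repeated spots. This count follows the choice of settings. The array median and the series table moved every member by a constant, the filters moved none, and averaging cannot move a member with 1 measured probe. Under at least 1 alternative 13 of the 42 members changed sign, all with reported differences of at most 0.33 in size, and 0 of the 4 members past 1.5-fold did. Dim signal limits Ccne2 and Mcm2, which have no measured difference.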

Other observations

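Of the further lists, 3 mitotic genes passed the background call under the WT label only. Under the EGR1-deficient label only, 2 mitotic genes and 1 replication gene did. The share of all genes that passed on 1 array only was not counted, so these counts cannot be read as many or few. Of all non-control spots, 59.8% passed under the EGR1-deficient label and 55.2% under the WT label. All are single readings named after their values were seen. Pbk, a mitotic kinase gene, had 9.72 under the EGR1-deficient label and 50.1 under the WT label, at least 3.94-fold lower. Mad1l1, which encodes the kinetochore partner of MAD2, had 11.9 under the EGR1-deficient label and 43.0 under the WT label, at least 3.38-fold lower. The kinesin gene Kif4 was at least 1.59-fold lower under the EGR1-deficient label. Cdc7, the kinase that fires licensed origins, was at least 1.74-fold higher there in its brightest probe, while another of its probes differed by 0.13.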
